A study of Mus musculus with 6 samples.

Results

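Carbon monoxide and hydrogen sulfide are gases that vessel wall cells make themselves, as they make nitric oxide. The 9 enzymes described here make carbon monoxide and hydrogen sulfide or handle the products that follow: Hmox1, Hmox2, Blvra and Blvrb on the carbon monoxide side, and Cbs, Cth, Mpst, Ethe1 and Suox on the hydrogen sulfide side. They were chosen by name with earlier results of these data known. A gene was taken to be measured where a probe set of the array carried that gene symbol alone. All 9 of 9 were found, each with 1 probe set, among 22180 genes named in this way, and all 9 lay above the filter on dim genes (4.38 log2), which 18007 genes passed.

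The samples were aorta of mice deficient in endothelial nitric oxide synthase (eNOS, the product of Nos3), labelled eNOS-KO and numbered 11, 15 and 19, and aorta of wild type mice of the same age, labelled WT and numbered 2, 3 and 5. Total RNA of each was put on 1 Affymetrix array, and values are log2 signals. The sources used here do not give the targeted allele, strain, sex, age itself or any pooling. Nothing in the labels says that each sample is another animal, so a p-value here measures the spread between samples, which may be technical. Each sample is a piece of whole tissue, in which fewer cells of a type and less RNA per cell cannot be told apart.

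Heme oxygenases open the ring of heme and release carbon monoxide, iron and biliverdin, which biliverdin reductases turn into bilirubin. Hydrogen sulfide comes from cysteine and homocysteine through cystathionine beta-synthase (Cbs) and cystathionine gamma-lyase (Cth), and from mercaptopyruvate through Mpst. Mitochondria remove it by a chain of oxidation steps that ends in sulfite oxidase. In arteries carbon monoxide can stimulate soluble guanylate cyclase, the receptor of nitric oxide, and hydrogen sulfide relaxes smooth muscle in part through potassium channels.

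Hmox2 and Cbs are the 2 of the 9 enzymes whose eNOS-KO and WT arrays did not overlap, and Suox carries a GC-rich upstream stretch, so the letters just before a start of these 3 genes are shown. Each is the 250 bases before a transcript start, on the gene's own strand, from RefSeq's promoter table (build GRCm38.p6), which held 7 of the 9 genes and not Hmox1 or Cth. Capitals mark matches on either strand to the GC box GGGCGG, the CCAAT box CCAAT or the antioxidant response element core TGACNNNGC. The Hmox2 stretch lies at chr16:4756631-4756880 (plus strand), that of Cbs at chr17:31637206-31637455 (minus strand) and that of Suox at chr10:128673919-128674168 (minus strand).
Hmox2: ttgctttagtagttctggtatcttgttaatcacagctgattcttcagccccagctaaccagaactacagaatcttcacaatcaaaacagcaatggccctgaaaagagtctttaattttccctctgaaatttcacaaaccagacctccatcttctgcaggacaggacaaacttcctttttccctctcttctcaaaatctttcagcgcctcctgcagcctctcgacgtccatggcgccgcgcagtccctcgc
Cbs: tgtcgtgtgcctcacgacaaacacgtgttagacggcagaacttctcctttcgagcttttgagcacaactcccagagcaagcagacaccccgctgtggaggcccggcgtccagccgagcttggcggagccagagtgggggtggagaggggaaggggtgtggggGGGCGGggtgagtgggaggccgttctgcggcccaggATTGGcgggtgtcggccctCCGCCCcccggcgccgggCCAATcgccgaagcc
Suox: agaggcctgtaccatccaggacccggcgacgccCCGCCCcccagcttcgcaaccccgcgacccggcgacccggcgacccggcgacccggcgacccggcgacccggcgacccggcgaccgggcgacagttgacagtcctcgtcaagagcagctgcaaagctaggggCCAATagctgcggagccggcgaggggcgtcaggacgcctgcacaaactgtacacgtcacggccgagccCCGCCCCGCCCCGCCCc
The Suox stretch had 74.4% G and C with 4 GC box matches, the last 3 of them overlapping, and 1 CCAAT match. The Cbs stretch had 68.0% G and C with 2 GC box and 2 CCAAT matches. The Hmox2 stretch had 46.8% G and C and no match, and the table gives a window for another Hmox2 start just downstream with 2 GC box matches side by side. Of all such stretches that the RefSeq table holds, 32851 in number, 32.7% held a GC box, 33.8% a CCAAT box and 10.2% the response element core. The response element core was in 2 of the 13 stretches of the 7 genes, 1 of Blvra and 1 of Mpst. These matches describe letters only.

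Facts of the whole set of arrays bear on every result. Array medians were 5.55 to 5.59 log2 for eNOS-KO and 5.61 to 5.68 for WT, without overlap. Nos3 itself averaged 7.26 ± 0.13 in eNOS-KO and 7.74 ± 0.34 in WT (SD, n = 3 each), with 1 WT array inside the eNOS-KO range, and the sources used here do not place its probes relative to the targeted part. In limma 5 of 18007 genes (0.0278%) passed an adjusted p under 0.05. An unadjusted p under 0.05 was met by 1415 genes in the higher and 669 in the lower direction in eNOS-KO, or by 2028 and 388 with every array centred on its median. The arrays carried smooth muscle genes in quantity, with a mean of 8 markers of 9.75 to 10.05 in eNOS-KO and 9.48 to 9.74 in WT.

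Single arrays stood apart in markers of other cells. A mean over 9 squamous epithelium markers was 4.50 to 4.88 on the eNOS-KO arrays, and 6.02, 5.06 and 8.98 on WT 2, 3 and 5. Lymphocyte markers (7 measured) stood at 6.21 on eNOS-KO 11 and at 8.37 and 8.67 on eNOS-KO 15 and 19, against 7.89 to 8.41 in WT. Skeletal muscle markers (8 measured) were highest on eNOS-KO 11 (11.53) and WT 5 (10.98), and stood between 9.03 and 10.08 on the others. Macrophage markers (11 of 11 measured) lay at 8.33 to 8.71 in eNOS-KO and 7.54 to 7.95 in WT, and adventitial fibroblast markers (7 of 8) at 9.48 to 9.76 in eNOS-KO and 8.82 to 9.33 in WT. Adipocyte markers (8 of 8) were at 11.23 to 11.32 in eNOS-KO and 11.06 to 11.44 in WT, and 3 measured erythroid markers at 4.97 to 5.13 in eNOS-KO and 5.23 to 5.41 in WT. A mean of 3 Y-linked genes was 7.76, 4.71 and 8.002 on eNOS-KO 11, 15 and 19 and 3.47 to 3.63 in WT. The eNOS-KO arrays all lay above WT in these genes, with eNOS-KO 15 well below eNOS-KO 11 and 19. The labels give no sex, but Y-linked signal differed, so sex may be unequal between the groups and also within eNOS-KO. A difference in sex between the groups cannot be told apart from that of genotype. The part of any of these in the differences below was not tested.

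**Figure D1:**
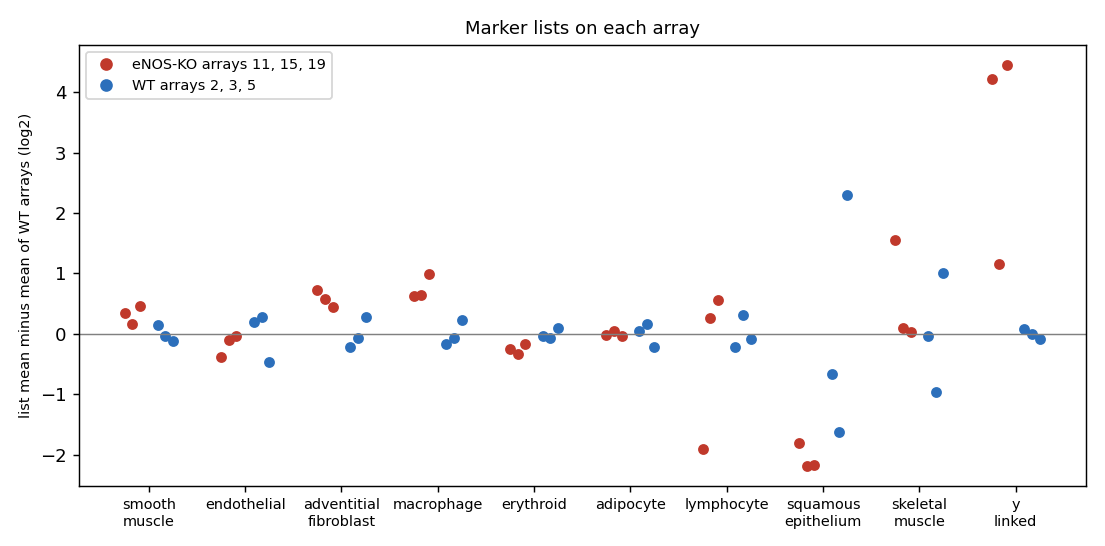
Mean of each marker list on each array, minus the mean of the WT arrays (log2), with eNOS-KO arrays in red on the left of each list in the order 11, 15, 19 and WT arrays in blue in the order 2, 3, 5. Smooth muscle, fibroblast, macrophage and Y-linked lists lie higher on all 3 eNOS-KO arrays than on any WT array. Squamous epithelium and erythroid lists lie lower on all 3. WT 5 stands out for squamous epithelium and eNOS-KO 11 for lymphocyte and skeletal muscle genes.

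None of the 9 enzymes passed the test between genotypes (limma, Benjamini-Hochberg over 18007 genes), with adjusted p from 0.376 to 0.890. The difference, eNOS-KO minus WT, was positive for 7 and negative for 2, where 56.6% of all genes tested were positive. Differences ran from -0.15 to 0.39 log2 with a median of 0.25, beside a median of 0.036 over all genes. An unadjusted p under 0.05 was met by 1 enzyme, Hmox2, higher in eNOS-KO, against a background of 11.6% of genes (7.86% higher and 3.72% lower). Groups of arrays did not overlap for 2 enzymes, Hmox2 higher and Cbs lower, where 19.5% of all genes showed this, 13.1% higher and 6.48% lower. Both counts are near what those shares give for 9 genes. The unadjusted count was 3 of 9 with arrays centred on their medians, where 2028 genes were higher and 388 lower of 18007. It was also 3 with array weights (2126 and 1300 of 18007) and 0 after repeated quantile normalization (1115 and 484 of 18006). The count without overlap was 3 with centred arrays, where 21.9% of all genes showed this. With genes under the 50th percentile left out, 7 enzymes were tested, 6 of them positive. The median over all 13057 genes then tested was 0.081. An unadjusted p under 0.05 was met there by 1 enzyme, and by 1384 genes higher and 279 lower. The 9 genes lie on 8 chromosomes, and 0 of them on that of Nos3.

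**Figure D2:**
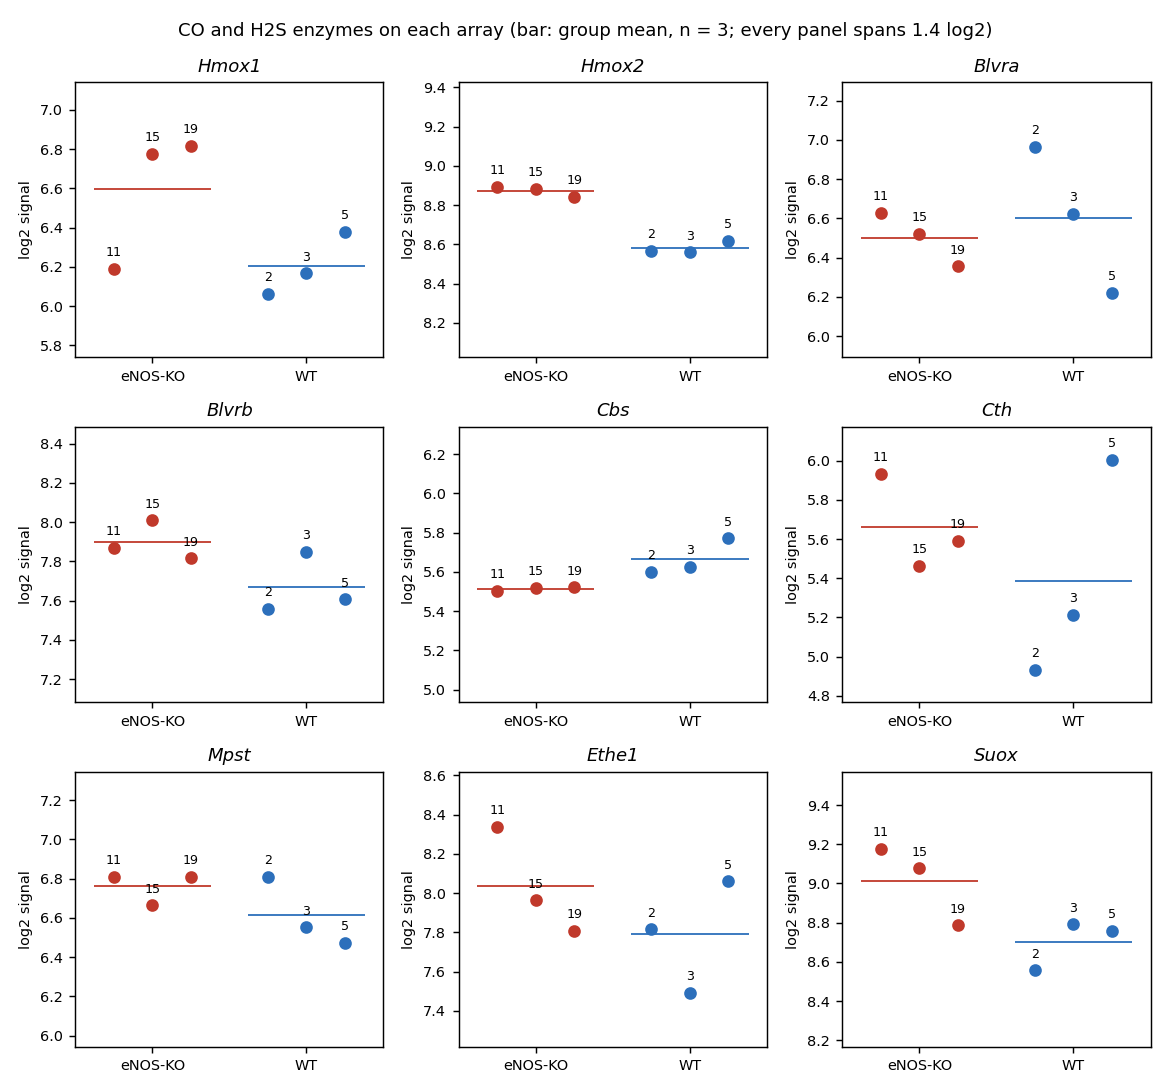
Log2 signal of each enzyme on each array, numbered as in the labels, with eNOS-KO on the left and WT on the right. Horizontal bars are group means (n = 3), and every panel spans the same range, so that spread can be compared between panels. Hmox2 and Cbs have tight groups that stay apart, eNOS-KO 11 lies inside the WT range for Hmox1, and all 3 eNOS-KO arrays lie inside the WT range for Blvra and Cth.

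Hmox1 encodes the inducible heme oxygenase, which is low in resting vessels, rises under oxidative stress and heme load, and is rich in macrophages that clear red cells. It stood at 6.19, 6.78 and 6.82 on eNOS-KO 11, 15 and 19 and at 6.06, 6.17 and 6.38 on WT 2, 3 and 5. Of the eNOS-KO arrays, 15 and 19 were above all WT arrays, and 11 was inside the WT range. The mean was 6.59 ± 0.35 in eNOS-KO and 6.20 ± 0.16 in WT (SD, n = 3 each), a difference of 0.39 (standard error 0.20, 95% interval -0.066 to 0.85, limma adjusted p = 0.489). This was the largest difference of the 9, equal to 1.31-fold. With each array left out in turn the difference ran from 0.28 to 0.59 (adjusted p from 0.364 to 0.757), lowest without eNOS-KO 19. Leaving out eNOS-KO 11 gave 0.59 (adjusted p = 0.387), and leaving out eNOS-KO 11 and WT 5 together, a choice made after seeing the data, gave 0.68 (adjusted p = 0.104). The macrophage marker mean was 8.33, 8.35 and 8.71 on eNOS-KO 11, 15 and 19, and 7.54, 7.65 and 7.95 on WT 2, 3 and 5, and its part in the Hmox1 values was not tested.

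Hmox2 encodes the constitutive heme oxygenase, present in endothelium and nerve without induction. It stood at 8.89, 8.88 and 8.84 on eNOS-KO 11, 15 and 19 and at 8.57, 8.56 and 8.62 on WT 2, 3 and 5. All eNOS-KO arrays were above all WT arrays, by a gap of 0.23, which exceeds the whole range of 0.048 within eNOS-KO and of 0.057 within WT. The difference was 0.29 log2 or 1.22-fold (95% interval 0.044 to 0.54, limma adjusted p = 0.376), and an exact permutation test over arrays gave a two-sided p of 0.1, the smallest that 3 arrays against 3 can give. The standard error that limma used, 0.11, was 4.51 times the 0.023 that these 6 values give on their own, because limma shares variance between genes. With any 1 array left out the difference was 0.28 to 0.31. It was 0.36 with arrays centred on their medians and 0.20 with quantile normalization repeated. Hmox2 was the enzyme with the narrowest 95% interval of the 9.

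Whether the 2 heme oxygenases differed unequally between genotypes was tested on their log2 ratio within each array. Hmox1 minus Hmox2 averaged -2.28 ± 0.37 in eNOS-KO and -2.38 ± 0.13 in WT, a difference of 0.10 (two-sided exact permutation p = 0.7). Leaving out eNOS-KO 19 turned the sign (-0.027). The smallest p that 3 arrays against 3 can give is 0.1, so this test could not pass at any size of difference.

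The biliverdin reductases showed no shared direction. Blvra encodes the enzyme that turns the main biliverdin isomer into bilirubin, an antioxidant. It stood at 6.63, 6.52 and 6.36 on eNOS-KO 11, 15 and 19 and at 6.97, 6.62 and 6.22 on WT 2, 3 and 5, so that all eNOS-KO values lay inside the WT range. Its difference was -0.10 (95% interval -0.57 to 0.37, limma adjusted p = 0.890), with -0.29 when WT 5 was left out and 0.080 without WT 2, which turns the sign. Blvrb encodes a reductase of another biliverdin isomer and of flavins that is abundant in red cells. It stood at 7.87, 8.01 and 7.81 on eNOS-KO 11, 15 and 19 and at 7.56, 7.85 and 7.61 on WT 2, 3 and 5. WT 3 alone reached into the eNOS-KO range, and the difference was 0.23 (95% interval -0.081 to 0.53, adjusted p = 0.543). The 3 measured erythroid markers (Epb42, Slc4a1 and Klf1) had a lower mean in eNOS-KO, 5.05 ± 0.081 against 5.31 ± 0.092 in WT, the opposite direction to Blvrb.

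On the hydrogen sulfide side, both enzymes of transsulfuration, the route from homocysteine to cysteine, had differences of opposite sign. Cbs, which condenses homocysteine with serine, stood at 5.50, 5.52 and 5.52 on eNOS-KO 11, 15 and 19 and at 5.60, 5.62 and 5.77 on WT 2, 3 and 5. The eNOS-KO arrays were all lower, within a range of 0.017 against 0.17 in WT. The difference was -0.15 log2, or 0.90-fold (95% interval -0.41 to 0.11, limma adjusted p = 0.646, exact permutation p = 0.1, the smallest possible). Without WT 5, the array with the most squamous epithelium signal, it was -0.097. With arrays centred on their medians it was -0.085, and also -0.085 with quantile normalization repeated. Cbs signals lay near the array medians, which were themselves lower on every eNOS-KO array than on any WT array.

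Cth, the cystathionine gamma-lyase often named as the main hydrogen sulfide source of the vessel wall, varied more between WT arrays than any other of the 9 enzymes. It stood at 5.93, 5.46 and 5.59 on eNOS-KO 11, 15 and 19 and at 4.93, 5.21 and 6.01 on WT 2, 3 and 5. The WT arrays spanned 1.07 log2 and held the lowest and the highest of the 6 values. The difference of 0.28 (95% interval -0.38 to 0.93, limma adjusted p = 0.747) was 0.59 without WT 5 (adjusted p = 0.234), 0.053 without WT 2 and 0.14 without eNOS-KO 11. WT 5 and eNOS-KO 11, highest for Cth, were also highest for the skeletal muscle list (10.98 and 11.53), whose part was not tested. By the same test, with the same limit of 0.1, Cth minus Cbs within each array averaged 0.15 ± 0.25 in eNOS-KO and -0.28 ± 0.46 in WT, a difference of 0.43 with overlapping groups (two-sided exact permutation p = 0.3).

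Mpst encodes mercaptopyruvate sulfurtransferase, which makes sulfide from a product of cysteine. It stood at 6.81, 6.66 and 6.81 on eNOS-KO 11, 15 and 19 and at 6.81, 6.55 and 6.47 on WT 2, 3 and 5. WT 2 matched the highest eNOS-KO arrays. The difference was 0.15 (95% interval -0.16 to 0.46, limma adjusted p = 0.715), or 0.079 without WT 5 and 0.25 without WT 2.

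The oxidation enzymes Ethe1 and Suox both had positive differences. Ethe1 encodes the mitochondrial persulfide dioxygenase, which takes the sulfur on from persulfide to sulfite. It stood at 8.34, 7.96 and 7.81 on eNOS-KO 11, 15 and 19 and at 7.82, 7.49 and 8.06 on WT 2, 3 and 5. The groups overlapped widely, and the difference was 0.25 (95% interval -0.22 to 0.71, limma adjusted p = 0.671) or 0.097 without eNOS-KO 11 and 0.38 without WT 5. Suox encodes sulfite oxidase, which makes sulfate and needs a molybdenum cofactor. It stood at 9.18, 9.08 and 8.79 on eNOS-KO 11, 15 and 19 and at 8.56, 8.79 and 8.76 on WT 2, 3 and 5. The eNOS-KO arrays 11 and 15 were above all WT arrays and 19 lay marginally below WT 3. The difference was 0.31 or 1.24-fold (95% interval -0.031 to 0.65, adjusted p = 0.469), second in size after that of Hmox1, and 0.23 without eNOS-KO 11.

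**Figure D3:**
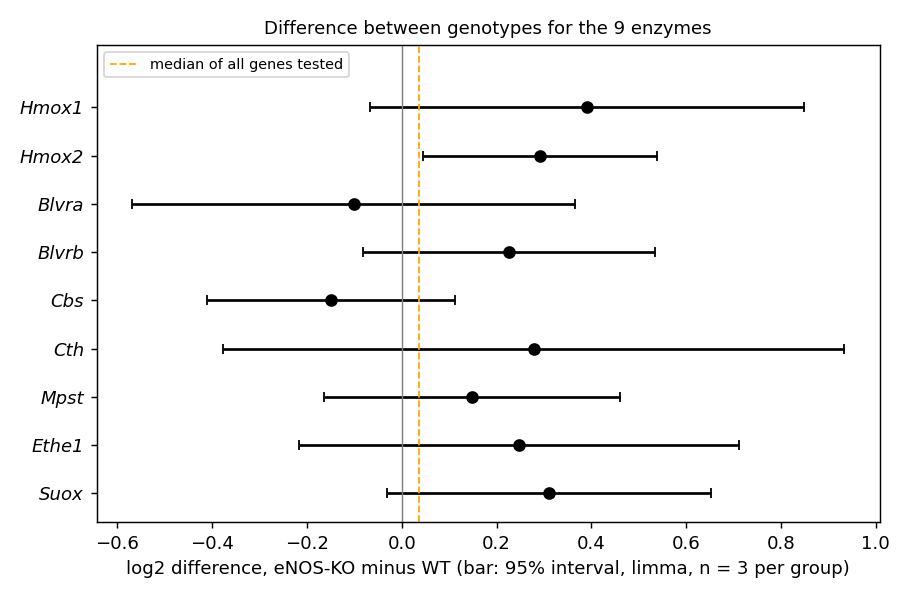
Log2 difference, eNOS-KO minus WT, of the 9 enzymes with 95% intervals from limma (n = 3 arrays per group). The interval of Hmox2 alone stays above 0, those of the other 8 include it, and the dashed line is the median of all genes tested, 0.036.

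The intervals set what these arrays could show. Values above 0.54 log2 lay outside the interval of Hmox2, whereas that of Cth reached 0.93. For 8 of the 9 enzymes the interval included 0, and in none did the adjusted p reach the threshold under any alternative run.

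Around the 9 enzymes, 76 genes of the same pathways were listed by role, of which 67 were tested. The lists were drawn up with earlier results of these data known, so the counts and shares below are descriptions and no independent test. In limma 0 passed an adjusted p under 0.05. An unadjusted p under 0.05 was met by 10 in the higher and 0 in the lower direction, or 14.9% higher against 7.86% of all genes. Groups did not overlap for 17, all higher (25.4%), where 13.1% of all genes were higher in this way. The median difference was 0.12 over these 67 and 0.036 over all genes. Differences were positive for 53 of the 67 (79.1%), and for 56.6% of all genes. Shares of all genes set beside the lists, here and below, were not matched for brightness. Leaving out genes under the 50th percentile kept 60 list genes, of which 10 met the unadjusted cut as higher and 0 as lower. Among the 13057 genes of all kinds then tested, 1384 met it as higher and 279 as lower. The median difference over those 13057 was 0.081, in place of 0.036.

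Heme synthesis, which makes the substrate of the heme oxygenases, had 7 of 7 tested genes with a positive difference and a median of 0.23. Of all genes 56.6% were positive. Groups did not overlap for 3 of the 7, all higher, as for 13.1% of all genes. Alas1, the rate-limiting first step, stood at 9.45, 9.36 and 9.48 on eNOS-KO 11, 15 and 19 and at 8.98, 9.07 and 8.59 on WT 2, 3 and 5, a difference of 0.55 (limma adjusted p = 0.292) with all eNOS-KO arrays higher. Alad, the next enzyme, differed by 0.45 (adjusted p = 0.334) and Urod by 0.32 (0.439), both without overlap of the groups. Uros differed by 0.23 with overlap.

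Heme uptake and iron handling had 9 positive and 3 negative differences among 12 genes (median 0.13). Slc40a1, ferroportin, the exporter through which cells release the iron freed from heme, averaged 7.11 ± 0.18 in eNOS-KO and 6.46 ± 0.15 in WT without overlap, a difference of 0.65 (limma adjusted p = 0.236). Cd163, the macrophage receptor for hemoglobin bound to haptoglobin, averaged 7.31 ± 0.32 in eNOS-KO and 6.62 ± 0.17 in WT, a difference of 0.70 (adjusted p = 0.289), and Lrp1, which takes up heme bound to hemopexin, differed by 0.34 (0.421). Haptoglobin itself (Hp) differed by 0.40 with overlap (0.592). Macrophages express Slc40a1 and Cd163, and Cd163 is also in the macrophage list, whose means were 8.33 to 8.71 in eNOS-KO and 7.54 to 7.95 in WT.

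Among 9 regulators of Hmox1 transcription 0 reached an unadjusted p under 0.05, where 11.6% of all genes did, so that the count is near the background, and the median was 0.0021. Nfe2l2, which encodes the activator NRF2, differed by 0.099 and its repressor Keap1 by 0.0021. Bach1, a heme-sensing repressor of Hmox1, averaged 8.13 ± 0.069 in eNOS-KO and 8.32 ± 0.25 in WT, a difference of -0.19 with overlap (limma adjusted p = 0.667). Maff, a small Maf partner, differed by 0.31 (0.516) and the stress factor Atf4 by -0.24 (0.564). Bach2, a lymphocyte relative of Bach1, stood at 5.87 on eNOS-KO 11 and at 7.42 to 7.81 on the other 5 arrays, and eNOS-KO 11 was also the array with the lowest lymphocyte mean.

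Upstream of Cbs, the methionine and homocysteine cycle had 4 positive and 3 negative differences among 7 tested genes (median 0.079). Ahcy, which releases homocysteine, had 2 probe sets, of which the brighter is given here. It stood at 6.03, 6.09 and 6.03 on eNOS-KO 11, 15 and 19 and at 5.58, 5.42 and 5.95 on WT 2, 3 and 5. The difference was 0.40 without overlap (limma adjusted p = 0.399), and it rests on that probe set. Of the list genes with an unadjusted p under 0.05, Ahcy alone had 2 probe sets. With the probe sets of each gene averaged, 9 of 66 list genes met that p in limma, in place of 10 of 67. Mthfd1, a folate enzyme, differed by 0.21, Mat2b, a regulator of methionine adenosyltransferase, by 0.13 and the methyltransferase Gnmt by -0.13, each with overlap.

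Cysteine use and persulfide supply had 10 positive and 3 negative differences among 13 genes (median 0.14), with 0 at an unadjusted p under 0.05 (11.6% of all genes). Got1 and Got2, the aminotransferases that make mercaptopyruvate for Mpst, differed by 0.85 and 0.63 (limma adjusted p = 0.470 and 0.536). Got1 stood at 11.34, 10.37 and 10.44 on eNOS-KO 11, 15 and 19 and at 9.64, 9.29 and 10.67 on WT 2, 3 and 5. The highest arrays within each genotype, eNOS-KO 11 and WT 5, were those highest for skeletal muscle markers and for Cth. Cars2, a mitochondrial cysteinyl-tRNA synthetase that also forms persulfides, differed by 0.21 without overlap (0.504), and Slc3a2, a subunit of the cystine importer, by 0.28 with overlap (0.555).

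Sulfide oxidation and the molybdenum cofactor gave 9 positive and 2 negative differences among 11 genes (median 0.16), and 6 of the 11 had eNOS-KO arrays all above WT, as 13.1% of all genes did. Tst, the mitochondrial thiosulfate sulfurtransferase rhodanese, stood at 9.09, 8.59 and 8.97 on eNOS-KO 11, 15 and 19 and at 7.54, 7.70 and 8.51 on WT 2, 3 and 5. Its difference of 0.97 (95% interval 0.34 to 1.60, limma adjusted p = 0.292) was the largest among the 67 genes. Tst and Mpst are related sulfurtransferases and direct neighbours on chromosome 15, with 0 protein-coding genes between them, and Mpst differed by 0.15. Tstd3, a gene with a rhodanese-like domain, differed by 0.57 (0.299) without overlap. Sqor, the sulfide quinone oxidoreductase that starts mitochondrial sulfide oxidation ahead of Ethe1, averaged 8.24 ± 0.060 in eNOS-KO and 7.92 ± 0.11 in WT, a difference of 0.33 without overlap (adjusted p = 0.375). Mocs1, which starts synthesis of the cofactor that Suox carries, differed by 0.23 (0.507) without overlap.

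Of 8 genes for vessel wall targets of the gases all 8 differences were positive (median 0.10), beside 56.6% of all genes. This was the list with the lead gene nearest to the threshold. Kcnmb1, a beta subunit of the large-conductance potassium channel in smooth muscle, averaged 9.09 ± 0.17 in eNOS-KO and 8.34 ± 0.071 in WT (limma adjusted p = 0.198). With array weights that limma estimated from these same values it passed, at a difference of 0.75 (adjusted p = 0.0471). In that setting 119 of 18007 genes passed, in place of 5, and Kcnmb1 passed in no other alternative. The mean of 8 smooth muscle markers was 9.75 to 10.05 in eNOS-KO and 9.48 to 9.74 in WT, and its part in the Kcnmb1 values was not tested. Kcnma1, the channel's pore, differed by 0.40 with overlap, Kcnj8, the pore of the vascular ATP-sensitive channel, by 0.31 without overlap, and its sulfonylurea receptor Abcc9 by 0.11. The guanylate cyclase subunits Gucy1a1 and Gucy1b1 differed by 0.099 and 0.075.

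**Figure D4:**
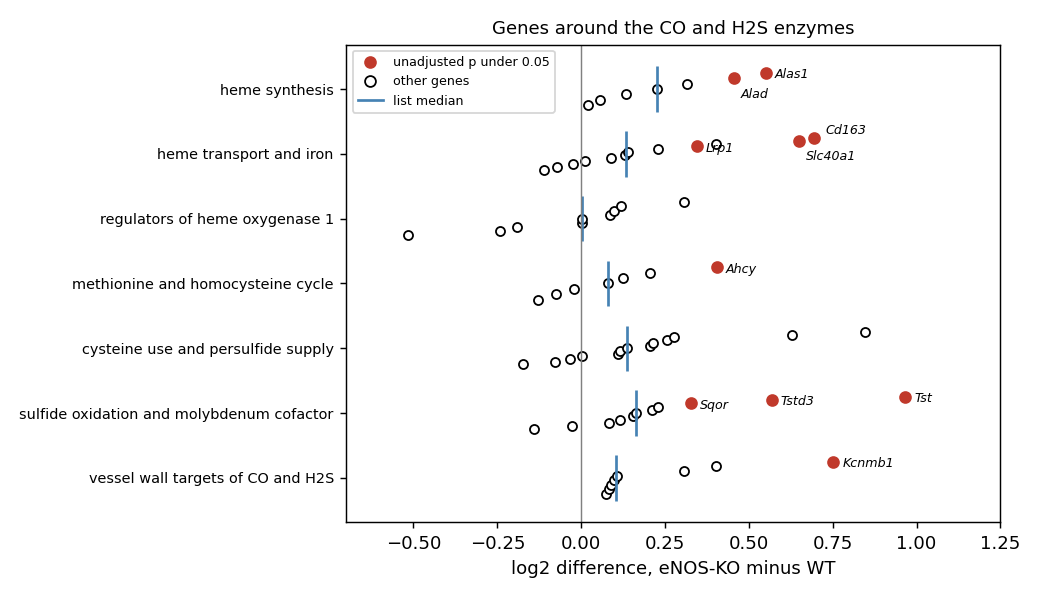
Log2 difference, eNOS-KO minus WT, of each tested gene in the 7 lists around the 9 enzymes. Filled red points are the 10 genes with an unadjusted p under 0.05, all of them higher, open points are the others, and blue lines are list medians, which run from 0.0021 for regulators of heme oxygenase to 0.23 for heme synthesis.

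The genes whose signals followed those of Hmox1 and Cth most closely over the 6 arrays were picked by Pearson's r among 18006 genes, so that high values are certain to occur and describe these arrays only. For Hmox1 they were C1rb (r = 0.989), a complement protease gene, Ptpre (0.986), a protein tyrosine phosphatase gene, and Tmem176a (0.983), a transmembrane gene. C1rb stood at 4.32, 5.27 and 5.49 on eNOS-KO 11, 15 and 19 and at 3.98, 4.09 and 4.46 on WT 2, 3 and 5, the same order of arrays as Hmox1. On eNOS-KO 11, WT 2 and WT 3 it lay under the filter on dim genes (4.38 log2). It passed that filter only by its mean over all 6 arrays. For Cth they were Blzf1 (r = 0.995), a Golgi protein gene, Ankrd2 (0.984), an ankyrin repeat gene of striated muscle, and Tmem62 (0.984). Ankrd2 stood at 8.30, 7.28 and 7.90 on eNOS-KO 11, 15 and 19 and at 6.53, 6.96 and 8.33 on WT 2, 3 and 5, with WT 5 and eNOS-KO 11 highest, as for Cth.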

How the data were processed

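Log2 signals of 6 arrays were used as the authors deposited them in the series table; per the submitters' processing notes they come from RMA in Affymetrix Expression Console 1.3.1, and per the labels' protocols from biotin-labelled cDNA of 300 ng total RNA. RMA's quantile step acts to remove global differences between samples, though array medians of the deposited values still lay apart by genotype. Of 41345 probe sets, 23521 had 1 gene symbol in the platform annotation, 1814 several and 16010 none. The brightest probe set stood for a gene, and genes whose mean lay in the lowest 25% of probe set means were left out. Ahcy, Got2 and Kcnma1 had 2 probe sets each, and the dimmer is not described. No pair of arrays shared over 0.109% of values. eNOS-KO minus WT was tested in R 4.3.3 by limma 3.58.1 (eBayes on lmFit, two-sided, Benjamini-Hochberg over 18007 genes at 0.05), after a test on simulated data. Ratios between enzymes were tested by exact permutation. The number of arrays limits precision (median standard error 0.16). No genome build is named by the array files, so reference tables served for names, neighbours and the printed stretches.

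The 9 enzymes and the gene lists were chosen with earlier results of these data known. Named list genes are up to 4 per list with the smallest p, and for Hmox1 and Cth the 3 genes most alike, with predicted genes, microRNAs, small nucleolar RNAs and pseudogenes passed over. Genes named beyond this (Nfe2l2, Keap1, Gucy1a1, Gucy1b1) were chosen after their values were seen. The erythroid list had 3 of 12 members measured under a single symbol. Alternatives were 2 other dim filters, array weights, a robust variance trend, averaging a gene's probe sets, 2 rescalings (median centring or a second quantile normalization) and leaving out arrays. Plots were drawn with matplotlib 3.10.9.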

Additional observations from a re-analysis of the deposited data

How the results depend on the processing

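In none of the 14 alternatives did any of the 9 enzymes pass, with the lowest adjusted p 0.104 (Hmox1, without eNOS-KO 11 and WT 5). With each array left out in turn the count of the 9 past the threshold was 0 to 0. Signs held in every alternative run, except that Blvra turned to 0.080 without WT 2 (range -0.29 to 0.080 with each array left out) and Hmox1 minus Hmox2 to -0.027 without eNOS-KO 19 (range -0.027 to 0.31); Cth minus Cbs ranged from 0.24 to 0.69. Hmox2 kept its sign at 0.20 to 0.36. Over all genes, 5 passed; the count was 3 with no dim filter, 2 with the mean of probe sets, 2 after repeated quantile normalization, 119 with array weights (which gave WT 5 a weight of 0.296 and eNOS-KO 15 one of 2.92), 2 without eNOS-KO 11 and WT 5, and 0 to 6 with each array left out. Among pathway genes 1 passed with array weights (Kcnmb1) and 0 otherwise, also 0 to 0 with each array left out. The causes were not tested. Median centring moved the median of all genes to 0.10. With genes under the 50th percentile left out, Cbs and Cth were too dim to be tested. No paired analysis was possible because the replicate numbers of eNOS-KO and WT samples have none in common.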
